A study of Mus musculus with 6 samples.

Results

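The 43 collagen chain genes described here are the rows of the authors' deposited table whose gene name has the form of a collagen chain symbol (Col, a type number, the letter a and a chain number), out of 17385 genes listed. GENCODE M21 holds 44 protein-coding genes with such names, and Col10a1 was not analysed here. The members were grouped as 11 fibrillar chains, 6 basement membrane chains of collagen IV, 6 chains of collagen VI and 20 others. The samples were hippocampi of 2-month-old C57BL/6 mice, 3 from sATF6-KI mice and 3 from Control mice. The sATF6-KI mice carried Rosa26-sATF6-MER together with Emx1-Cre, and the Control mice carried Emx1-Cre alone, so both groups share the Cre. Emx1 drives expression in the dorsal forebrain lineage, and in which hippocampal cells the Cre acted was not examined here. ATF6 is a membrane protein of the endoplasmic reticulum (ER) whose cytosolic part, once released, switches on genes of the unfolded protein response, and sATF6 is its short form. Whether a ligand of MER was given is not stated in the sources used here.

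Collagens are secreted or membrane proteins built from 3 chains that wind into a triple helix. The chains are hydroxylated, assembled and checked in the ER before export, which makes them demanding clients of its folding machinery. In the brain most fibrillar collagen is made by fibroblasts of the meninges, the choroid plexus stroma and the vessel wall, collagen IV forms the sheet under endothelium and around astrocyte endfeet, and a few chains are made by neurons, among them the transmembrane collagen XXV.

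All values of single genes come from the authors' deposited table: the mean normalized expression over all libraries (baseMean), the log2 fold change of sATF6-KI over Control, its Wald statistic and its p-values. Log2 fold changes are given ± a Wald standard error, which is not the table's own error column but was computed as the fold change over the Wald statistic. The 95% intervals (Wald intervals) come from that error, and both assume that the statistic rests on the deposited fold change. A gene was called where the authors' adjusted p was under 0.05. The table's values per library could not be tied to labelled samples, so no level per mouse or per group is given, the depth per sample is unknown here, and no error was taken between libraries. In tissue RNA, more cells of a type and more RNA per cell cannot be told apart.

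Many collagen chain genes were higher in sATF6-KI hippocampus, across fibrillar, basement membrane and other types, with 1 chain of collagen VI lower. By the authors' deposited table, 16 of the 43 were called higher, against 3.41% of all genes, and 1 was called lower, against 1.93% of all genes. Of the members 37.2% were thus called higher, while 1 call lower among 43 is near the share over all genes. The fold changes of the called higher members were modest and close together, from 1.27-fold for Col11a2 to 1.85-fold for Col17a1 in the authors' deposited table, with a median of 1.48-fold. Before any threshold, 40 of 43 members (93.0%) had a fold change above 1 in the authors' deposited table, against 51.3% of all genes. In the authors' deposited table the members had a median log2 fold change of 0.45, against 0.00 over all genes. Another 13 members had an unadjusted p under 0.05 and a positive fold change without being called, which makes 29 at that threshold, where 8.2% of all genes lie. On the lower side that threshold was passed by 1 member, Col6a4, which was also called, and by 7.59% of all genes. These members were measured in the same 6 samples and are not independent of each other.

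**Figure D1:**
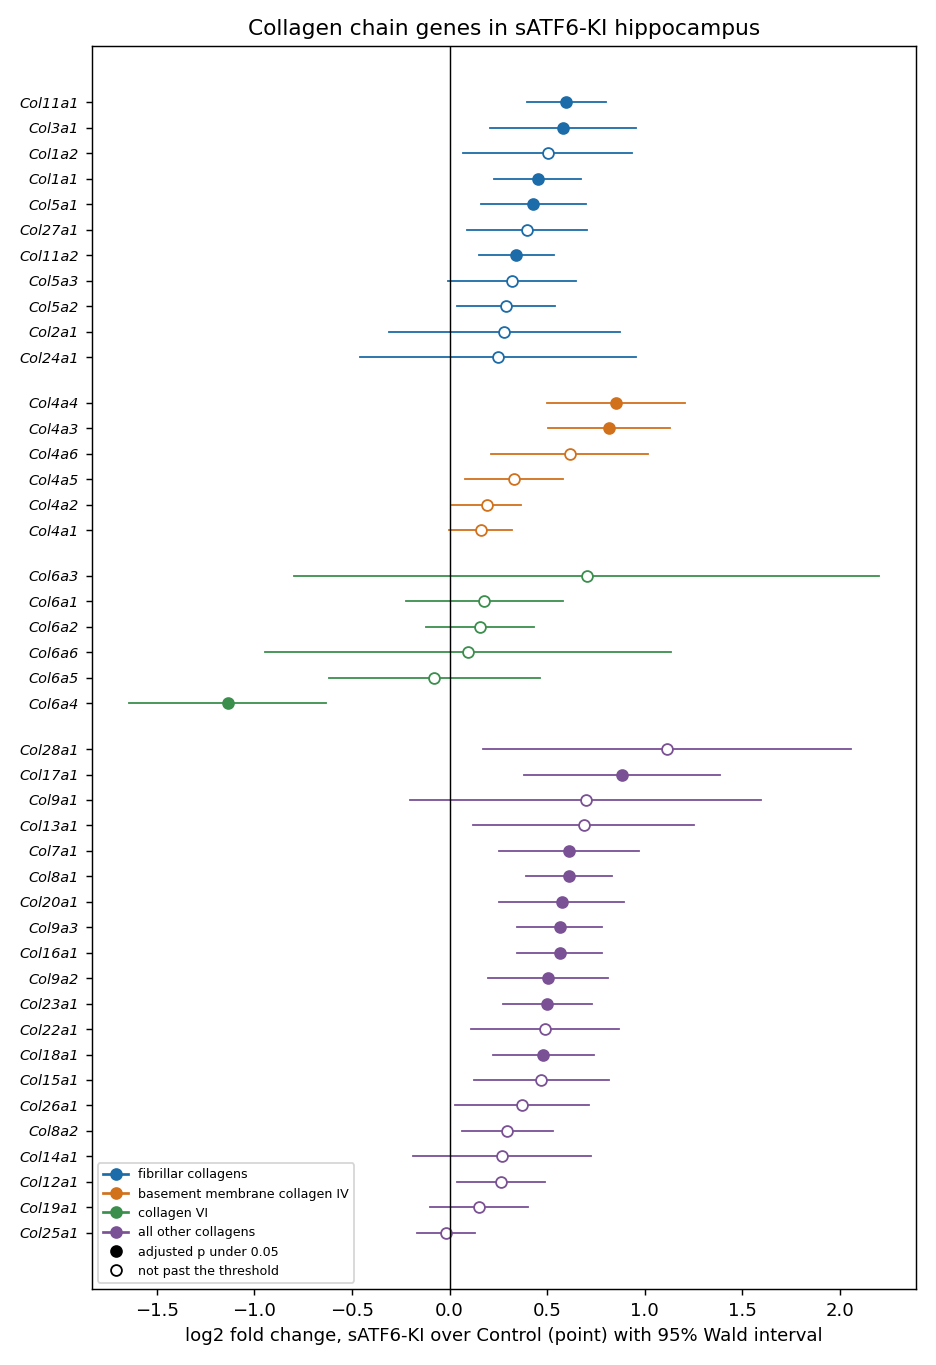
Log2 fold change of sATF6-KI over Control for each of the 43 collagen chain genes (points) with its 95% Wald interval (lines), by group; filled points had the authors' adjusted p under 0.05. All 11 fibrillar chains and all 6 chains of collagen IV lie right of 0, while collagen VI holds the 1 member called lower, Col6a4.

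Fibrillar chains form the banded fibers of connective tissue. Of 11 members 5 were called higher (45.5%, against 3.41% of all genes) and none lower by the authors' deposited table. The median log2 fold change was 0.40, with a range from 0.25 to 0.60. None had a negative fold change, and 8 were higher at an unadjusted p under 0.05, against 8.2% of all genes. Col11a1, a chain of the minor fibrillar collagen XI that sits in the fiber core, had the lowest p of all members. The gene lies on chromosome 3 from 114030540 to 114220718 (GRCm38). It was 1.51-fold higher by the authors' deposited table (Wald interval 1.31 to 1.75, the authors' adjusted p = 1.02e-06), or 0.60 ± 0.10 on the log2 scale. Col11a2, its partner in the same trimer, was 1.27-fold higher by the authors' deposited table (Wald interval 1.11 to 1.45, the authors' adjusted p = 0.0158). The third chain of collagen XI comes from Col2a1, which is also the sole chain of cartilage collagen II. Col2a1 was at 0.28 ± 0.30 on the log2 scale with a baseMean of 45.8 in the authors' deposited table and was not called.

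Col1a1 and Col1a2 encode the 2 chains of collagen I, the main fibrillar collagen of skin, bone and vessel wall. Col1a1 was 1.37-fold higher by the authors' deposited table (Wald interval 1.17 to 1.60, the authors' adjusted p = 0.00345). Col1a2 had a larger fold change with a wider error, 0.50 ± 0.22 against 0.45 ± 0.11 for Col1a1 on the log2 scale by the authors' deposited table, and was not called (the authors' adjusted p = 0.206). The intervals of these partners overlapped. Col3a1, whose product forms homotrimers in distensible tissue, was 1.49-fold higher by the authors' deposited table (Wald interval 1.15 to 1.94) and was the called member nearest to the threshold, at the authors' adjusted p = 0.0461.

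Collagen V starts fibers and sets their width. Its gene Col5a1 was 1.35-fold higher by the authors' deposited table (Wald interval 1.12 to 1.62, the authors' adjusted p = 0.0353). Col5a2, at 0.29 ± 0.13 on the log2 scale, and Col5a3, at 0.32 ± 0.17, were not called in the authors' deposited table (adjusted p = 0.214 and 0.335). Nor was Col27a1, a fibrillar chain of cartilage, at 0.40 ± 0.16 in the authors' deposited table (adjusted p = 0.133). Col24a1 was among the members with low levels, with a baseMean of 45.5 and a fold change of 0.25 ± 0.36 (log2) in the authors' deposited table.

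Collagen IV is the network collagen of basement membranes. Its 6 genes lie in 3 pairs, and the members of a pair start near each other on opposite strands. By the authors' deposited table, 2 of the 6 were called higher (33.3%, against 3.41% of all genes) and none lower. The median log2 fold change was 0.47. The called ones were the 2 members of 1 pair, Col4a3 and Col4a4, which with Col4a5 make the trimer of the glomerulus and some other specialised basement membranes. Col4a3 was 1.76-fold higher by the authors' deposited table (Wald interval 1.42 to 2.19, the authors' adjusted p = 2.75e-05). Col4a4 was 1.80-fold higher by the authors' deposited table (Wald interval 1.41 to 2.30, the authors' adjusted p = 0.000155). These were larger than any other called rise among the members apart from that of Col17a1.

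Col4a1 and Col4a2 make the common trimer of vascular basement membranes. Neither was called in the authors' deposited table, with log2 fold changes of 0.16 ± 0.08 for Col4a1 and 0.19 ± 0.09 for Col4a2 (adjusted p = 0.321 and 0.260). Their baseMeans of 2499 and 2872 were 2 of the highest among the members in the authors' deposited table, and their errors were among the smallest. Their intervals reached up to 1.25-fold higher for Col4a1 and 1.29-fold for Col4a2, where the smallest called rise, of Col11a2, was 1.27-fold. By the authors' DESeq2 test the unadjusted p was 0.0341 for Col4a2 and 0.0516 for Col4a1. The interval of Col4a3 (0.50 to 1.13 on the log2 scale) and that of Col4a4 (0.50 to 1.20) lay apart from those of Col4a1 (-0.00 to 0.32) and Col4a2 (0.01 to 0.37) in the authors' deposited table. The difference itself was not tested. The point values of the X-linked pair lay between them. Col4a6 was at 0.62 ± 0.21 on the log2 scale by the authors' deposited table, with an adjusted p of 0.0509, and was thus the member just outside the threshold. It was called higher, as a 17th member, at an adjusted p under 0.1, at a baseMean of at least 10 and with protein-coding genes alone. Col4a5 was at 0.33 ± 0.13 in the authors' deposited table (adjusted p = 0.118).

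The starts of the called pair and of the abundant pair are shown, chosen after it was seen that the fold changes within each pair were close. Whether nearby starts bear on the fold changes was not tested. RefSeq windows of 300 bases from GRCm38.p6 reach from 250 bases before a gene's start to 50 after it. The capitals mark the stretch from the GENCODE M21 start of one gene to that of its partner on the other strand. For Col4a4 the window is chr1:82586800-82587099 on the minus strand, and the starts of Col4a4 and Col4a3 are 72 bases apart. For Col4a2 it is chr8:11312555-11312854 on the plus strand, and the annotated starts of Col4a2 and Col4a1 are 21 bases apart, with spans that overlap by 22 bases. The windows held 63.3% and 73.7% G and C.
Col4a4: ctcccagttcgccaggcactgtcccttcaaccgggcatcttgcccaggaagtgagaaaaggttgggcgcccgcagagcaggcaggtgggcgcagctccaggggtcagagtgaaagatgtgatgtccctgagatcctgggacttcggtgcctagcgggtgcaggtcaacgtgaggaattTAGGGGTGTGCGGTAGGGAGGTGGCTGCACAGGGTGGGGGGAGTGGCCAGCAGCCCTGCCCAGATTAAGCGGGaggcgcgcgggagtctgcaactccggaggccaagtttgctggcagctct
Col4a2: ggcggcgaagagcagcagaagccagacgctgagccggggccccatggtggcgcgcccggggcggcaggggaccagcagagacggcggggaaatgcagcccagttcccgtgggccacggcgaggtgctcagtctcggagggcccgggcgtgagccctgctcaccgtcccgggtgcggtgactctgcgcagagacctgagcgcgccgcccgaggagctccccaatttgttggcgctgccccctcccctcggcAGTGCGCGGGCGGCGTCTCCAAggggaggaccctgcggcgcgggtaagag
In the X-linked pair the starts of Col4a5 and Col4a6 are 1309 bases apart, so that their windows do not meet. The intervals of Col4a5 and Col4a6 overlapped.

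Collagen VI forms beaded filaments near cells and basement membranes. None of its members was called higher by the authors' DESeq2 test or was higher at an unadjusted p under 0.05, and 1 was called lower. Over all genes 3.41% were called higher and 1.93% lower. At these shares, no call higher among 6 members does not set collagen VI apart from all genes. In the authors' deposited table the median of the 6 was 0.13 on the log2 scale, while their mean was -0.01 and so differed from it in sign. Col6a4, one of the genes that can supply the long chain of the trimer, was the 1 member called lower. It fell by 1.14 ± 0.26 on the log2 scale by the authors' deposited table (interval -1.64 to -0.63, the authors' adjusted p = 0.000569), at a baseMean of 134. Expressed as a ratio, its level in sATF6-KI was 0.455 of that in Control in the authors' deposited table (interval 0.321 to 0.645). The computed Wald error of Col6a4 was wider than those of Col4a4 and Col7a1, which were 0.18 each at a baseMean of 143.

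Col6a4 lies on chromosome 9 from 105989454 to 106096783 (GRCm38) beside its relatives Col6a5 and Col6a6 on the same strand, with gaps of 28810 and 27917 bases between the neighbouring spans. Col6a5 was at -0.08 ± 0.28 on the log2 scale and Col6a6 at 0.09 ± 0.53 in the authors' deposited table, and neither was called. The interval of Col6a4 lay apart from that of Col6a5 (-0.62 to 0.46), while that of Col6a6 (-0.95 to 1.13) was too wide to be set apart in the authors' deposited table. Col6a1 and Col6a2, which encode the short chains present in every collagen VI trimer, were at 0.18 ± 0.21 and 0.16 ± 0.14 in the authors' deposited table. Col6a3, the usual long chain, was at 0.70 and a baseMean of 213 in the authors' deposited table, and its computed Wald error of 0.76 was the widest of all members. That of Col3a1, at a baseMean of 204, was 0.19. The fold change of Col6a3 is therefore poorly determined, with an interval from 0.577 to 4.59-fold in the authors' deposited table.

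Fibril-associated collagens (FACIT) sit on the surface of fibers or basement membranes. Of 9 measured 4 were called higher (44.4%, against 3.41% of all genes) and none lower by the authors' deposited table. The median log2 fold change was 0.51. Col9a3, a chain of collagen IX, was 1.48-fold higher by the authors' deposited table (Wald interval 1.27 to 1.72, the authors' adjusted p = 3.3e-05). It overlaps Tcfl5 on the other strand, which had a baseMean of 14.4 in the authors' deposited table. Col9a2, its partner, was 1.42-fold higher by the authors' deposited table (Wald interval 1.15 to 1.76, the authors' adjusted p = 0.0298). Col9a1, the third partner, had 0.70 on the log2 scale and a baseMean of 24.6 in the authors' deposited table, and was not called. Its computed Wald error was 0.46. Col16a1, of a collagen found in several fiber types, was 1.48-fold higher by the authors' deposited table (Wald interval 1.27 to 1.72, the authors' adjusted p = 3.01e-05). Col20a1 was 1.49-fold higher by the authors' deposited table (Wald interval 1.19 to 1.86, the authors' adjusted p = 0.0136). It shares a same-strand stretch with 9230112E08Rik, which was at 0.22 ± 0.11 in the authors' deposited table, so reads of the stretch cannot be split with certainty.

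The other 5 of this class were not called. Col22a1 at 0.49 ± 0.19 and Col12a1 at 0.26 ± 0.11 on the log2 scale passed an unadjusted p of 0.05 in the authors' deposited table. Col14a1 at 0.27 ± 0.23 and Col19a1, a collagen of some hippocampal interneurons, at 0.15 ± 0.13 did not.

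Collagen VIII is a short-chain network collagen of vessel wall and of the membrane under the corneal endothelium. Col8a1 was 1.53-fold higher by the authors' deposited table (Wald interval 1.31 to 1.78, the authors' adjusted p = 5.74e-06). Col8a2 was at 0.30 ± 0.12 on the log2 scale by the authors' deposited table (adjusted p = 0.135), and the intervals of the pair overlapped. Collagens XV and XVIII are basement membrane collagens with sugar side chains, and endostatin is released from the end of the collagen XVIII chain. Col18a1 was 1.40-fold higher by the authors' deposited table (Wald interval 1.17 to 1.67, the authors' adjusted p = 0.00831), and Col15a1 was at 0.47 ± 0.18 on the log2 scale (adjusted p = 0.103). Col18a1 overlaps Slc19a1 on the other strand, a folate carrier gene at 0.16 ± 0.09 in the authors' deposited table.

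Transmembrane collagens span the plasma membrane and can be shed. Col17a1, a component of hemidesmosomes, was 1.85-fold higher by the authors' deposited table (Wald interval 1.30 to 2.61, the authors' adjusted p = 0.0161), at a low baseMean of 71.1. Col23a1 was 1.42-fold higher by the authors' deposited table (Wald interval 1.21 to 1.66, the authors' adjusted p = 0.000943). Col13a1 was at 0.69 ± 0.29 on the log2 scale by the authors' deposited table and was not called (adjusted p = 0.171). Col25a1, the neuronal member of the class, had the highest baseMean of all collagen genes, 3647, and the smallest error. Its log2 fold change was -0.02 ± 0.08 in the authors' deposited table, and its interval ran from 0.890 to 1.09-fold.

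Among the remaining collagens, Col7a1, which makes the anchoring fibers of skin, was 1.53-fold higher by the authors' deposited table (Wald interval 1.19 to 1.96, the authors' adjusted p = 0.0222). Col26a1 was at 0.37 ± 0.18 on the log2 scale by the authors' deposited table. Col28a1 had the largest positive fold change of all members, 2.16-fold, but a baseMean of 21.3 and an interval from 1.13 to 4.15-fold in the authors' deposited table, and it was not called (the authors' adjusted p = 0.191).

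The level of each chain was set on a common scale as baseMean per kb of exon, since long genes collect more reads. The exon length is the union over GENCODE M21 transcripts, from 3.10 kb for Col9a2 to 15.2 kb for Col12a1, and it understates the level where many transcripts are annotated. On this scale Col9a3 came first with 588 per kb, followed by Col4a2 with 434, Col4a1 with 335, Col6a1 with 295, Col25a1 with 282 and Col8a2 with 229 per kb. These 6 made up 59.0% of the summed level of all 43. Col1a1 and Col1a2 stood at 86.6 and 71.8 per kb, and Col3a1 at 20.8 per kb. Of the 6 most abundant chains per kb, Col9a3 was the 1 that was called. Col4a3 and Col4a4, at 16.2 and 13.4 per kb, were far below their relatives Col4a1 and Col4a2. Each level is a mean over both groups, and no spread over mice is given.

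**Figure D2:**
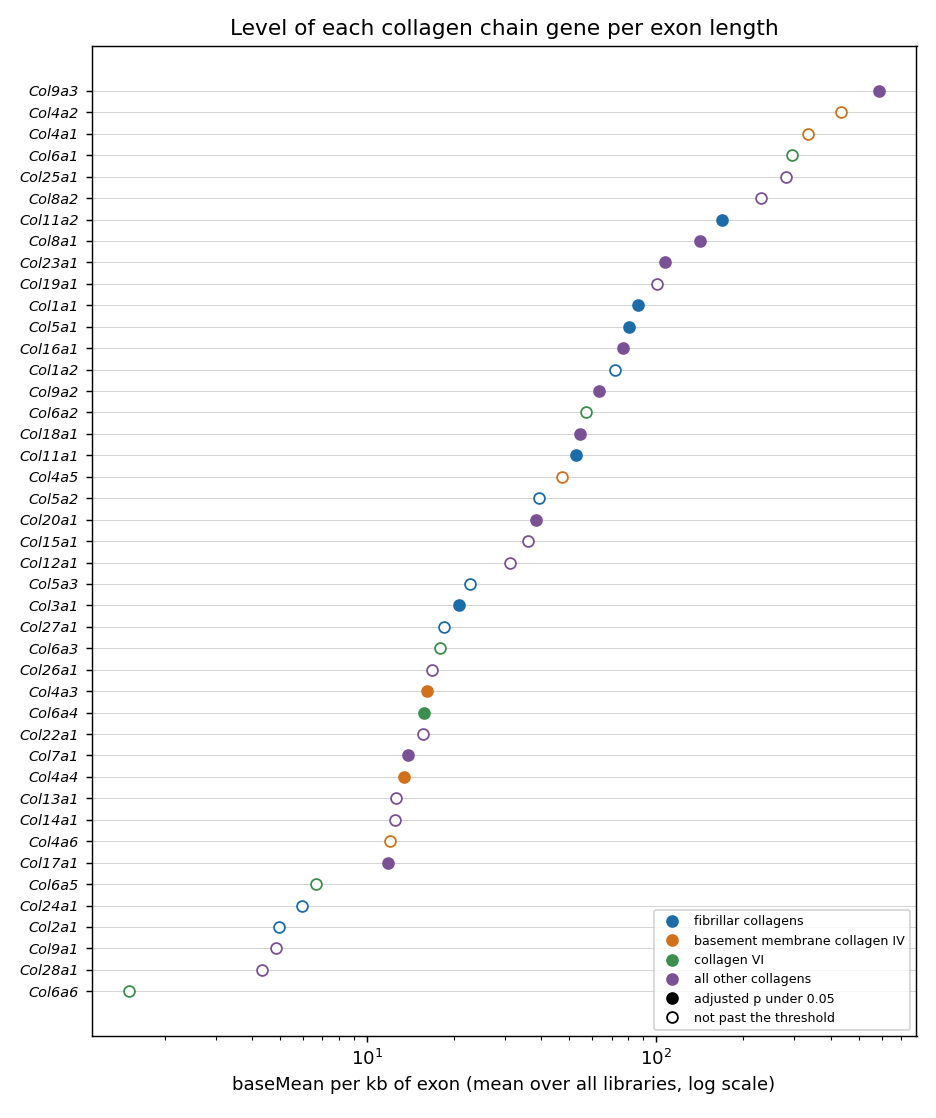
Level of each collagen chain gene as baseMean per kb of exon, averaged over all libraries (log axis), in falling order; colours give the group and filled points had the authors' adjusted p under 0.05. Col9a3 leads at 588 per kb, and called members occur along the whole range down to Col17a1 at 11.8 per kb.

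The 16 members called higher had a median baseMean of 450 in the authors' deposited table, against 221 for the 26 that were not called. Their computed Wald errors had a median of 0.13 on the log2 scale, against 0.18 for the 26. Collagen genes as a whole were lower in level than the table as a whole, with a median baseMean of 228 against 622, and their computed Wald errors were wider, with a median of 0.16 against 0.10. For 10 members the baseMean was under 100, and of these Col17a1 was called. Of the 8 members with a baseMean of at least 1000, Col9a3, Col8a1 and Col11a2 were called.

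**Figure D3:**
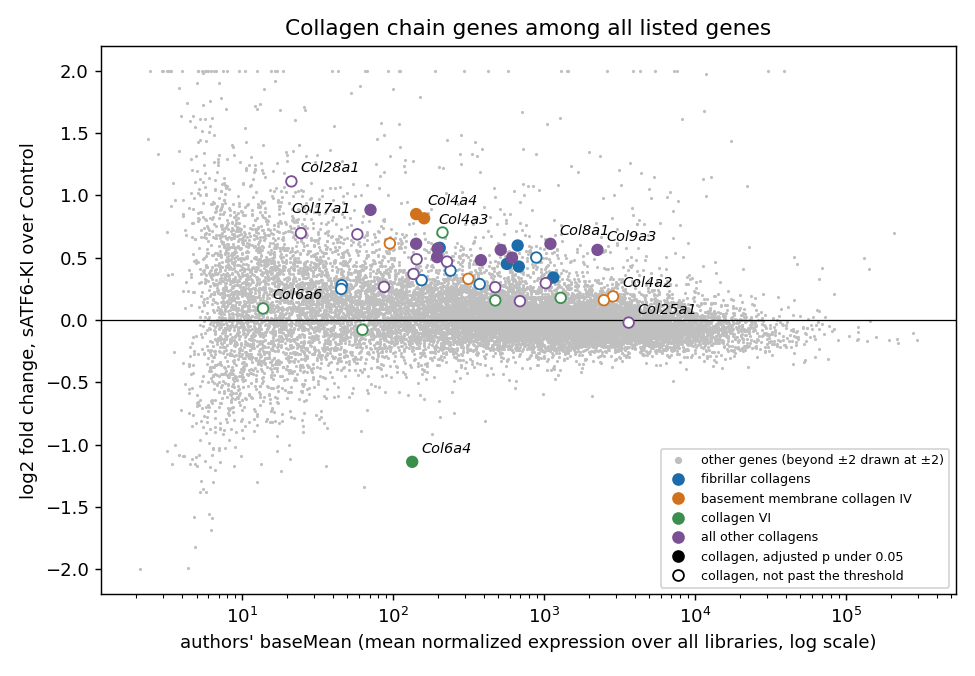
Log2 fold change of sATF6-KI over Control (vertical axis) against the authors' baseMean (log axis) for the collagen chain genes (coloured, filled where the authors' adjusted p was under 0.05) and all other genes (grey). Most collagen genes lie above 0, Col6a4 at -1.14 lies far below them, and Col25a1, with the highest baseMean of 3647, lies at -0.02.

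Promoter windows were searched for the sites known to bind ATF6, since the transgene encodes a short form of it. RefSeq windows were found for 34 of the 43 members by symbol. The other members are Col1a1, Col2a1, Col4a3, Col5a2, Col9a3, Col12a1, Col14a1, Col22a1 and Col26a1. The ER stress response element (ERSE) was searched as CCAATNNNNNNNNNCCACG, its second form (ERSE-II) as ATTGGNCCACG and the core of the unfolded protein response element (UPRE) as TGACGTG, all on both strands. None of the 34 held an ERSE or an ERSE-II, which 0.119% and 0.0365% of all 32851 windows hold. The UPRE core was in 1 of 34, Col11a2, and in 2.01% of all windows. The short element CCACG, which is part of ERSE and ERSE-II and can overlap the UPRE core, was in 13 of 34 members (38.2%) and in 32.8% of all windows. Of the 13 members with a window that were called higher, 4 held it. A member counted if any of its windows matched (37 windows for 34 members), while the share of all windows is per window. Member windows held a median of 60% G and C, against 52.7% over all windows. The windows of Hspa5 and Derl3, ER stress genes chosen after their values were seen, show what the ERSE looks like where it was found, at chr2:34772025-34772043 on the plus strand and chr10:75893242-75893260 on the minus strand. The Col11a2 window, chr17:34038888-34039187 on the plus strand, is shown with the UPRE core in capitals, read on the other strand. The GENCODE M21 start of Col11a2, at 34039437, lies past the end of this RefSeq window, so the annotations differ in where the gene starts. In the ERSE stretches the capitals are the fixed letters of the element.
Hspa5: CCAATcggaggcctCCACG
Derl3: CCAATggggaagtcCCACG
Col11a2: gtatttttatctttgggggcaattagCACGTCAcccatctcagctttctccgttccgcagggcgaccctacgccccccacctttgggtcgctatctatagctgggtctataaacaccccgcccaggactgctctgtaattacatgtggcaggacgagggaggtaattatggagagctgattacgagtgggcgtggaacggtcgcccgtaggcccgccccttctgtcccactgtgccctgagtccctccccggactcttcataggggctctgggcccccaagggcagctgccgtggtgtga
No match says only that these letters are not in these windows.

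Other genes of collagen biology were set beside the chains, in lists chosen with earlier results of these data known. For comparison, 3.41% of all genes were called higher and 1.93% lower. Of 20 genes for collagen folding and modification in the ER, 5 were called higher and none lower by the authors' deposited table, with a median log2 fold change of 0.14. The called ones were P4hb, a subunit of prolyl hydroxylase and also protein disulfide isomerase, at 1.02 ± 0.07 on the log2 scale by the authors' deposited table, Ppib, an ER cyclophilin, at 0.77 ± 0.07, and Serpinh1, the collagen chaperone HSP47, at 0.65 ± 0.08. Fkbp14, an ER prolyl isomerase, was at 0.53 ± 0.09 in the authors' deposited table and Leprel2, a prolyl 3-hydroxylase family member, at 0.36 ± 0.10. The hydroxylating subunits P4ha1, P4ha2 and P4ha3 and the lysyl hydroxylases Plod1, Plod2 and Plod3, chosen after their values were seen, were not called, with log2 fold changes from -0.18 for Plod1 to 0.15 for Plod2 in the authors' deposited table.

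Of 18 genes for export, trimming and crosslinking of procollagen, 2 were called higher and none lower by the authors' deposited table. They were Tfg, which acts at ER exit sites, at 0.41 ± 0.08 on the log2 scale, and Pcolce, an enhancer of procollagen C-terminal trimming, at 0.39 ± 0.12. Of 12 measured collagen receptors 2 were called higher and none lower by the authors' deposited table: Mrc2, which takes up collagen for breakdown, at 0.67 ± 0.14, and Ddr2, a receptor kinase for fibrillar collagen, at 0.39 ± 0.12. None of 11 measured genes of collagen breakdown and its inhibitors was called by the authors' DESeq2 test, while an unadjusted p under 0.05 was reached by 3 higher and 1 lower, with Mmp14, a membrane-bound collagenase, nearest at 0.22 ± 0.10 in the authors' deposited table. Of 17 matrix partners 4 were called higher and none lower by the authors' deposited table, with a median log2 fold change of 0.29. These were Fn1, fibronectin, at 0.29 ± 0.07, Hspg2, perlecan, at 0.41 ± 0.11, Nid1, nidogen, at 0.40 ± 0.12, and Bgn, biglycan, at 0.37 ± 0.11 in the authors' deposited table.

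**Figure D4:**
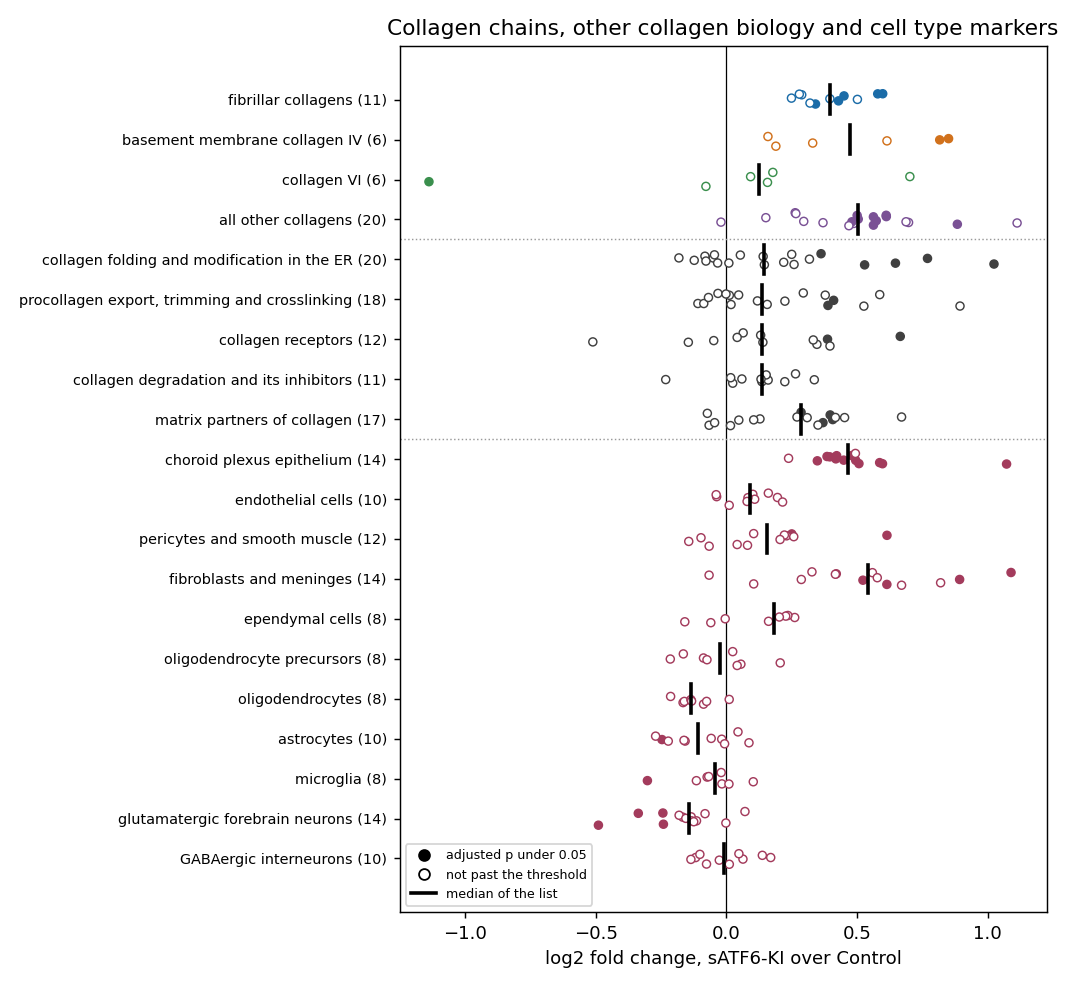
Log2 fold change of sATF6-KI over Control for every measured gene (points, filled where the authors' adjusted p was under 0.05) of the collagen groups, of other collagen biology and of cell type markers; bars are list medians and numbers in brackets are genes measured. The medians of the fibrillar chains (0.40), collagen IV (0.47), the choroid plexus markers (0.47) and the fibroblast and meninges markers (0.54) lie right of 0, and that of the glutamatergic neuron markers (-0.14) lies left of it.

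Markers of other cells of the tissue block were set beside these genes. Their lists were chosen with earlier results of these data known, so the counts called are not independent of that choice. For comparison, 3.41% of all genes were called higher and 1.93% lower, and 8.2% were higher at an unadjusted p under 0.05. Of 14 choroid plexus markers 12 were called higher and none lower by the authors' deposited table, with a median log2 fold change of 0.47, and their baseMean ran from 324 to 131970, so none is at 0. The 6 with the lowest p were Tmem72 at 1.07 ± 0.12, Cldn2 at 0.59 ± 0.10, Kl at 0.51 ± 0.09, Prlr at 0.60 ± 0.11, Clic6 at 0.48 ± 0.10 and Enpp2 at 0.42 ± 0.10 on the log2 scale by the authors' deposited table. Of 14 markers of fibroblasts and meninges 5 were called higher and none lower by the authors' deposited table, 10 were higher at an unadjusted p under 0.05, and the median was 0.54, with baseMeans from 42.4 to 8963. The 5 were Igfbp2 at 0.42 ± 0.09, Slc22a6 at 0.89 ± 0.22, Igf2 at 0.61 ± 0.17, Crabp2 at 1.09 ± 0.31 and Aldh1a2 at 0.52 ± 0.17 in the authors' deposited table. Dcn and Lum, fibroblast matrix genes chosen after their values were seen, were at -0.07 ± 0.10 and 0.11 ± 0.15 in the authors' deposited table and were not called. Levels of the lists in each group are not given here, and the part of these cells in the collagen fold changes was not tested.

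Among all genes 3.41% were called higher and 1.93% lower, and 8.2% were higher at an unadjusted p under 0.05. At these shares, no call in 8 or 10 markers does not set a list apart from all genes. None of 10 endothelial markers was called by the authors' DESeq2 test, and 2 were higher at an unadjusted p under 0.05. Their median log2 fold change was 0.09, and Slco1a4 was nearest at 0.20 ± 0.07 in the authors' deposited table. Of 12 markers of pericytes and smooth muscle 2 were called higher and none lower by the authors' deposited table, Anpep at 0.62 ± 0.17 and Pdgfrb at 0.25 ± 0.08, with a median of 0.16. None of 8 ependymal markers was called, or had an unadjusted p under 0.05, by the authors' DESeq2 test, and Foxj1 was nearest at 0.16 ± 0.10.

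Among all genes 1.93% were called lower and 3.41% higher, while 7.59% were lower and 8.2% higher at an unadjusted p under 0.05. At these shares, no call in 8 or 10 markers does not set a list apart from all genes. The 14 markers of glutamatergic forebrain neurons, the main cells of the labelled tissue, had baseMeans from 327 to 159768. Of these, 4 were called lower and none higher in the authors' deposited table, and the median log2 fold change was -0.14. The 4 were Itpka at -0.49 ± 0.07, Dkk3 at -0.34 ± 0.06, Zbtb18 at -0.24 ± 0.06 and Fibcd1 at -0.24 ± 0.06 in the authors' deposited table. By the authors' DESeq2 test 7 of the 14 were lower and none higher at an unadjusted p under 0.05, and 13 had a negative fold change. Of 10 astrocyte markers Aldoc was called lower, at -0.25 ± 0.08, and of 8 microglia markers P2ry12, at -0.30 ± 0.08 in the authors' deposited table, and none was called higher. By the authors' DESeq2 test 4 astrocyte and 1 microglia markers were lower at an unadjusted p under 0.05, and none was higher. The median log2 fold changes were -0.11 for the astrocyte and -0.04 for the microglia markers. No call of the authors' DESeq2 test fell among the 8 oligodendrocyte, the 8 oligodendrocyte precursor or the 10 GABAergic interneuron markers. At an unadjusted p under 0.05, 3 were lower in the first list, 1 higher and 1 lower in the second and none in the third, with Opalin at -0.21 ± 0.10, Gpr17 at 0.21 ± 0.08 and Reln at 0.17 ± 0.09 nearest in the authors' deposited table.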

How the data were processed

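Messenger RNA libraries from hippocampus of 3 sATF6-KI and 3 Control mice were grouped by the titles in the labels. Trizol RNA from frozen tissue went into stranded KAPA mRNA libraries, per the labels' protocols. DESeq2, HTSeq, STAR, cutadapt and Trim Galore are named in the submitters' processing notes; no source used here gives their versions, the strand setting, the annotation and build or any filter on low genes. The file deposited by the authors is 1 comparison over 17385 genes. Per the file headers it holds a mean normalized expression signal (baseMean), a log2 fold change, a Wald statistic (a score with no fixed range), a p-value and an adjusted p-value.

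The names of 6 more columns, with values per library, could not be matched to the sample labels; these columns were not used, so depth is unknown and the planned edgeR test could not be run. The Wald standard error was computed as log2 fold change over Wald statistic, because the deposited error is smaller (the ratio of the Wald error to it has a median of 1.21, and 1.53 for the members). A Benjamini-Hochberg adjustment over all listed genes gave the deposited adjusted p to within 3.89e-15. Positions and exon lengths come from GENCODE M21 (GRCm38), matched by gene ID (43 of 43 members), and promoter windows from RefSeq (GRCm38.p6).

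The members and lists were chosen with earlier results of these data known. Every member called, with an unadjusted p under 0.05, or in the fibrillar, collagen IV or collagen VI groups was named, and in each other list the called genes (at most 6, lowest p first) or, with none, the one with the lowest p. Adjusted p thresholds of 0.01 and 0.1, Bonferroni, a 1.5-fold minimum, baseMean minimums of 10 and 100, protein-coding genes alone and means for medians were tried. The calling step was run on simulated fold changes, drawn independently per gene with the computed Wald errors. That is the model the call assumes, so the run checks the code and not the calls made here. Tools were Python 3.11.15, scipy 1.17.1, numpy 2.4.6, pandas 2.3.3 and matplotlib 3.10.9.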

Additional observations from a re-analysis of the deposited data

How the results depend on the processing

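No paired analysis was possible because the values per library could not be matched to labelled samples; for the same reason fits with edgeR or DESeq2, other normalizations, no filter on low genes and fits without single replicates were not run. The 16 members called higher were 9 at an adjusted p under 0.01, 6 by Bonferroni and 6 with a fold change of at least 1.5; the 1 member called lower was 0 by Bonferroni over the authors' DESeq2 p-values, with 1 lower at an unadjusted p under 0.05. Over all genes, the 592 called higher were 379, 234 and 206 under these settings, and the 336 called lower were 135, 34 and 11; at an adjusted p under 0.1 they were 752 and 529. These settings tighten or loosen the call by construction. At a baseMean of at least 10 and with protein-coding genes alone all 17 called members kept their calls. Col4a6 gained one under both settings and at an adjusted p under 0.1, which made 17 higher. The medians of the collagen groups moved by less than the median error of their members under the baseMean minimums and with the mean in place of the median, but that of collagen VI changed sign, with a median of 0.13 and a mean of -0.01. The depth per sample is unknown, so what it limits was not tested.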
